A study of Mus musculus with 8 samples.

Results

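The genes described here encode the machinery that brings secretory and membrane proteins into the endoplasmic reticulum (ER), cuts off their signal peptides and attaches N-linked sugars to them. The set holds 39 genes, chosen by symbol for their function: the signal recognition particle (SRP) and its receptor, the translocon with the TRAM proteins, the translocon-associated protein (TRAP) complex, the signal peptidase, the oligosaccharyltransferase (OST), and enzymes that build the lipid-linked sugar precursor or trim it after transfer. Of these, 36 had a probe that carries their name, and all 36 were detected on enough arrays to be tested, among 10543 named genes and 19462 probes tested in all. Sec62, Spcs2 and Rpn1 were not analysed here. The measurements come from 8 tumor-draining lymph nodes of mice that bore subcutaneous B16 melanoma, a mouse melanoma cell line. In 4 mice the tumor received a single intratumoral injection of 3M-052, a synthetic TLR-7/8 agonist, and in the other 4 mice it received vehicle. All tumors had reached 30 to 40 mm2 before the injection, and the nodes were taken on day 4 after it. The study used female C57BL/6 mice at an age of 6 to 8 weeks by its general methods, the labels add no genotype or other agent for either group, and each array is a separate mouse. The labels' extraction text speaks of tumors, whereas the tissue label and the study's methods give lymph nodes.

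In mammalian cells most secreted proteins are caught by SRP while they are still being made, are delivered with their ribosome to the SRP receptor, and pass into the ER through the Sec61 channel. Signal peptidase removes the signal peptide inside the ER, and OST moves a preassembled glycan from the lipid dolichol to asparagine residues of the growing chain. Cells that secrete large amounts of protein, such as the antibody-secreting plasma cells of a lymph node, carry an extensive ER, and the transcription factor XBP1 is known to raise many of these genes during plasma cell differentiation.

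The measured unit was the intensity of a bead-array probe, which was background corrected, quantile normalized across arrays and brought to the log2 scale. Where a gene had several probes, the brightest was used. Differences are given as 3M-052 minus vehicle on the log2 scale with the standard error (SE) of the limma fit. A gene was called if its p-value, adjusted over all 19462 probes by the method of Benjamini and Hochberg, was under 0.05. The labels do not say that replicate numbers pair the arrays, but arrays of the same number correlated in these same data. A second fit that also blocks on the replicate number was therefore run. Calls that it changed are given for the members, their probes and the gene lists, and they rest on this assumed pairing. A whole lymph node was measured, so that a larger number of cells of a type and more RNA per cell cannot be told apart.

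Treatment with 3M-052 was followed by small differences across the set, most of them in the same direction, and few of them passed the test. Srprb, the beta subunit of the SRP receptor, was the only member called in the unpaired fit, and it rose. No member was called lower. For comparison, 546 of all probes (2.81%) were called higher and 446 (2.29%) lower, or 570 (2.93%) and 298 (1.53%) with arrays centered on their medians, and of the brightest probes of all named genes 2.44% were called higher, so 1 of 36 members is near the background share. With the replicate block, 6 members were called higher (Srp19, Srprb, Sec63, Ssr2, Ddost and Alg8) and none lower, against 6.33% and 7.70% of all probes. At an unadjusted p-value under 0.05, 10 members were higher and none lower, against 8.39% and 12.0% of all probes. The methods' t-test, an unpaired test of each probe at the study's threshold, gave 9 members higher and 1 lower, Stt3b, against 7.64% and 11.2% of all probes, and none after adjustment.

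By direction alone, 31 of the 36 members had a positive log2 difference, against 48.6% of all probes and 46.2% of the brightest probes of all named genes. The median difference of the members was 0.21, with a range from -0.22 for Stt3b to 0.78 for Srp19, whereas the median over all probes was -0.0098 and that over the named genes was -0.031. The 5 members with a negative difference were Srp9, Sec11a, Stt3a, Stt3b and Dpm1, and none of them was called. With arrays centered on their medians in place of quantile normalization, the median over all probes was 0.044, that of the members was 0.45, and Srp9, Sec11a and Stt3b became positive. The 4 arrays of the 3M-052 group all lay above the 4 vehicle arrays for Srprb, Sec63, Ssr1 and Ddost, which is 4 members against 5.57% of all probes. The reverse separation was found for no member and for 7.10% of all probes. Averaged over the 36 members, the log2 level of replicates 1 to 4 was 10.1, 10.1, 9.91 and 9.99 in the 3M-052 group and 9.84, 9.74, 9.77 and 9.78 in the vehicle group. These mean levels did not overlap between the groups, and the lowest of the 3M-052 levels was that of replicate 3. Such a separation was not particular to the members. The mean of 20 genes for protein import into mitochondria was 8.64 to 9.03 in the 3M-052 group and 8.47 to 8.63 in the vehicle group. That of 16 genes for the insertion of membrane proteins through the EMC and GET routes overlapped, at 8.94 to 9.26 and 8.99 to 9.04.

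**Figure D1:**
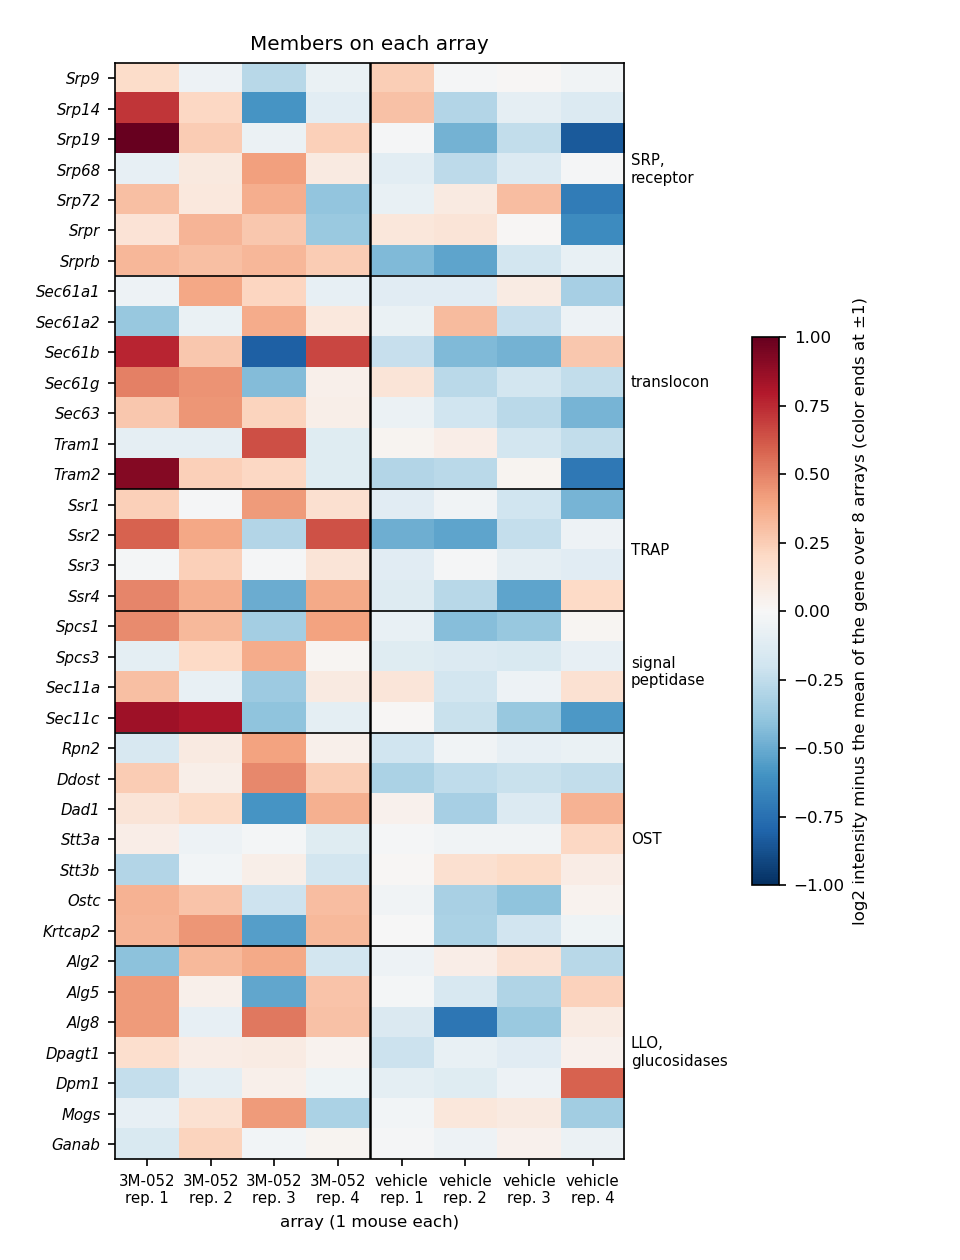
Log2 intensity of each measured member (rows, grouped by complex) on each array (columns, 3M-052 left and vehicle right), shown as the distance from the gene's mean over the 8 arrays. Most rows are warmer on the 3M-052 side, and 3M-052 replicate 3 is the coldest of its group in 14 of the 36 rows and the warmest in 14 others.

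**Figure D2:**
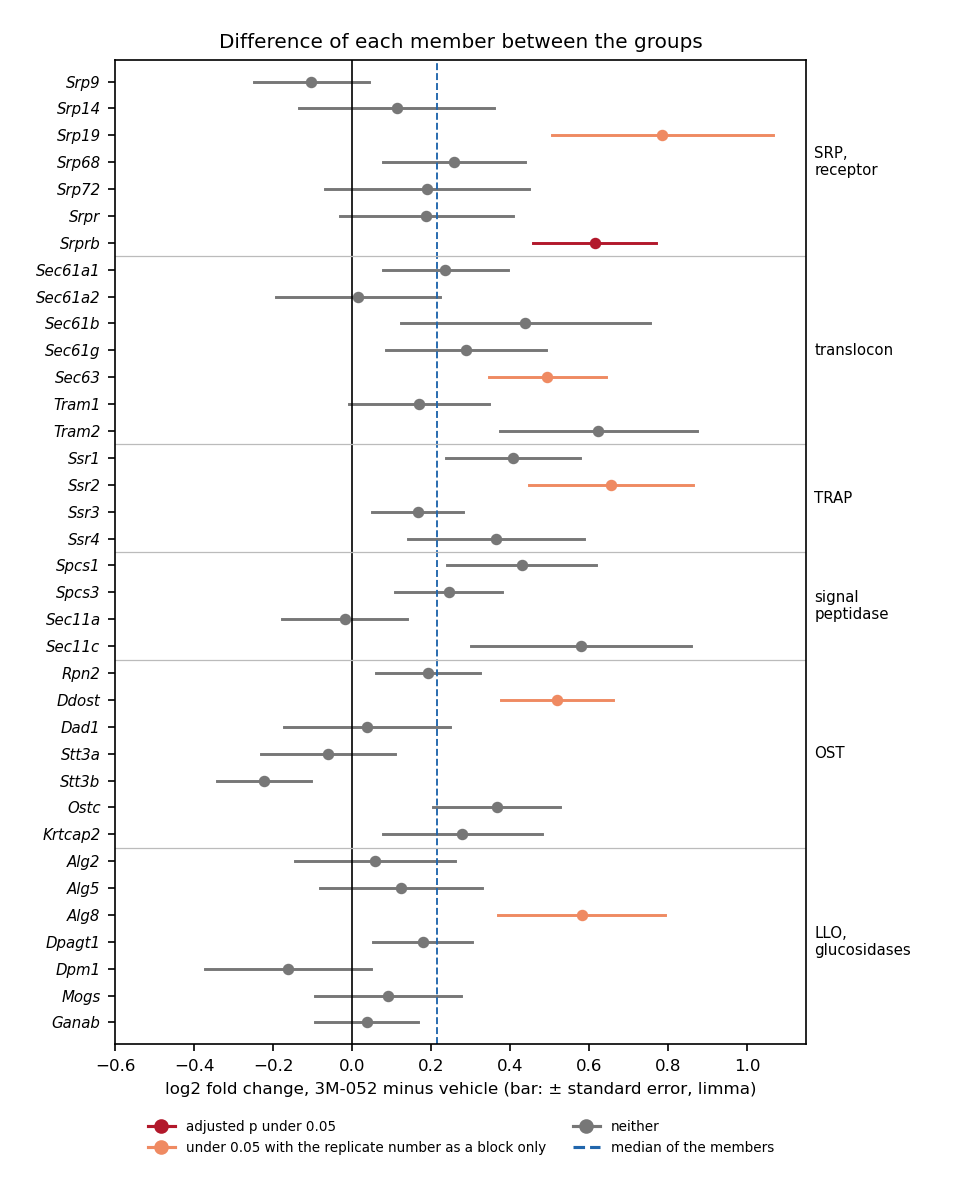
Difference of each member between the groups (3M-052 minus vehicle, log2, with ± 1 SE of the limma fit), ordered by complex, with the members' median of 0.21 as a dashed line. Only Srprb passed the adjusted threshold in the unpaired fit, and 5 more members passed it with the replicate number as a block.

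The 4 promoters below are those of the members with an unadjusted p-value under 0.05 that hold a short motif searched in all promoters, and they are shown so that its place can be compared. In mammals, XBP1 and the ATF6 proteins are known to act through elements that contain the letters CCACGT or the longer ER stress response element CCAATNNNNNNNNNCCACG. Each line gives the 100 bases before the annotated transcription start, 5′ to 3′ on the strand of the gene, from RefSeq in build GRCm38.p6, with every CCACGT in capitals.
Srprb (chr9:103202066-103202165, minus strand): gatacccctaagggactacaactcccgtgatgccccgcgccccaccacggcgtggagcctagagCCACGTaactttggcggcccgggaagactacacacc
Sec63 (chr10:42761396-42761495, plus strand): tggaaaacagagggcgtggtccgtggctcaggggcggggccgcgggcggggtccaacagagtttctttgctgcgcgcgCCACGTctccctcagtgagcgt
Ssr1 (chr13:37994209-37994308, minus strand): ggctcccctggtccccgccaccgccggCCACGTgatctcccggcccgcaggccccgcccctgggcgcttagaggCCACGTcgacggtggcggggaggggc
Spcs1 (chr14:31001667-31001766, minus strand): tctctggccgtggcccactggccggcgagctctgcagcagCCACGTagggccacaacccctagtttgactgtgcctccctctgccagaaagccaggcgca

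The letters CCACGT, searched on both strands in windows from 250 bases before to 50 bases after each start, occurred for 7 of the 26 measured members with such a window (26.9%), against 9.40% of all 27025 genes with a window, where a gene with several starts counted if any of its windows held the letters. The 27025 genes were not limited to those measured in the nodes, so the sets are unlike in this respect. The 7 members were Srprb, Sec63, Ssr1, Ssr3, Spcs1, Krtcap2 and Ganab. The first base of the motif lay 36 bases upstream of the start in Srprb, 22 in Sec63, 73 and 26 in Ssr1 and 60 in Spcs1. It lay farther off in Ssr3, at 190 bases upstream, and 20 or 55 bases upstream in Krtcap2, by the start used. In Ganab the match was on the opposite strand and began downstream of the start, at base 6. The log2 differences of the 7 members were all positive, between 0.04 for Ganab and 0.61 for Srprb, and only that of Srprb passed the adjusted threshold. Positive differences were also the rule in the whole set, with 31 of the 36 measured members, so the direction does not set members with the motif apart. The motif shares CCACG with the end of the longer element, and it overlaps the E-box CACGTG where a G follows. The longer element was not found in any of the 29 members with a window, called or not, and occurred for 0.137% of all genes with a window. A match of letters is a description of the sequence and was not tested as a binding site.

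Among the 7 genes of SRP and its receptor, 6 had positive differences, with a median of 0.19, and 1 was called. Srprb anchors the receptor in the ER membrane and lies on chromosome 9 (103188033 to 103202065). Its log2 intensity in replicates 1 to 4, the order kept in all lists of values here, was 9.16, 9.13, 9.16 and 9.08 in the 3M-052 group and 8.38, 8.30, 8.65 and 8.75 in the vehicle group. All 3M-052 arrays were higher than all vehicle arrays, and the 3M-052 arrays lay within a narrow range. On the linear scale this was an intensity of 563 ± 14.4 in 3M-052-treated mice and 370 ± 54.3 in vehicle-treated mice (SD, n = 4 each). The log2 difference was 0.61 (SE 0.156, limma adjusted p = 0.046, and 0.020 with the block), a fold change of 1.53, and the exact permutation test over the 8 arrays gave a two-sided p = 0.029, the smallest that 4 against 4 can give. The call held without vehicle replicate 4 (limma adjusted p = 0.032) and was lost when any other array was left out, with limma adjusted p up to 0.17 without vehicle replicate 2. The second, dimmer probe of Srprb did not show this difference. Its log2 intensity was 6.42, 6.61, 6.45 and 6.73 on the 3M-052 arrays and 6.41, 6.78, 6.38 and 7.19 on the vehicle arrays, with a log2 difference of -0.14 (limma adjusted p = 0.79). With the mean of both probes in place of the brightest, the log2 difference of Srprb was 0.24 and its limma adjusted p was 0.45.

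Srpr, the alpha subunit that contacts SRP, had log2 intensities of 9.14, 9.35, 9.27 and 8.63 on the 3M-052 arrays, against 9.12, 9.13, 9.02 and 8.38 on the vehicle arrays. The groups overlapped, replicate 4 was the lowest of both groups, and the log2 difference of 0.19 did not pass the test (limma adjusted p = 0.69). Srp19, which binds the SRP RNA and helps assemble the particle, had the largest difference of the set at 0.78 (SE 0.280). It was dim, at log2 intensities of 7.22, 6.35, 6.04 and 6.33 on the 3M-052 arrays and 6.08, 5.62, 5.85 and 5.25 on the vehicle arrays. The groups overlapped by the lowest 3M-052 array and the highest vehicle array, and the limma adjusted p was 0.14 without and 0.031 with the block. The other SRP proteins showed smaller differences. Srp68 and Srp72, which form a dimer on the SRP RNA, had log2 differences of 0.26 and 0.19. Srp9 and Srp14, the pair that pauses translation, had log2 differences of -0.10 and 0.11, with limma adjusted p of 0.75 and 0.85.

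All 7 measured translocon genes had positive differences, with a median of 0.29, and none was called without the block. Sec63, a membrane protein that recruits the chaperone BiP to the channel, had log2 intensities of 10.18, 10.35, 10.14 and 9.97 on the 3M-052 arrays and 9.85, 9.71, 9.64 and 9.45 on the vehicle arrays. The groups did not overlap. The log2 difference was 0.49 (SE 0.148, limma adjusted p = 0.081, and 0.023 with the block), and the 3 probes of Sec63 gave differences between 0.48 and 0.49 that all separated the groups. Sec61a1, which encodes the channel itself, had log2 intensities of 9.95, 10.40, 10.22 and 9.92 in the 3M-052 group and 9.90, 9.90, 10.09 and 9.67 in the vehicle group, with overlap and a log2 difference of 0.24 (limma adjusted p = 0.44). A dimmer probe of Sec61a1, detected on 3 arrays of each group, had a log2 difference of -0.25 (limma adjusted p = 0.50). Over the mean of its probes the difference was -0.0094. The paralog Sec61a2 was dimmer than the brighter probe of Sec61a1 and showed nearly equal means. It had log2 intensities of 7.26, 7.58, 8.01 and 7.74 in the 3M-052 group and 7.58, 7.95, 7.41 and 7.59 in the vehicle group, with a log2 difference of 0.02 (limma adjusted p = 0.98).

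Sec61b and Sec61g, the small subunits of the channel, had log2 differences of 0.44 and 0.29 and did not pass the test. For both, 3M-052 replicate 3 was below every vehicle array, at 8.99 for Sec61b and 10.97 for Sec61g, while the other 3M-052 arrays reached 10.07 to 10.57 and 11.45 to 11.91. Tram1 and Tram2 encode membrane proteins beside the channel, of which TRAM1 helps some signal sequences enter it. Tram1 had log2 intensities of 12.50, 12.50, 13.23 and 12.46 on the 3M-052 arrays and 12.62, 12.66, 12.40 and 12.34 on the vehicle arrays, so that only 3M-052 replicate 3 stood out. The log2 difference was 0.17 (limma adjusted p = 0.66). The dimmest of its 3 probes separated the groups, at 0.58 (limma adjusted p = 0.071, and 0.030 with the block), and was singled out after its values were seen. Tram2 was close to the detection limit, at 6.29, 5.62, 5.59 and 5.26 in the 3M-052 group and 5.08, 5.11, 5.40 and 4.67 in the vehicle group, and was detected on 4 and 3 arrays of these groups. Its log2 difference of 0.62 did not pass the test (limma adjusted p = 0.18).

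**Figure D3:**
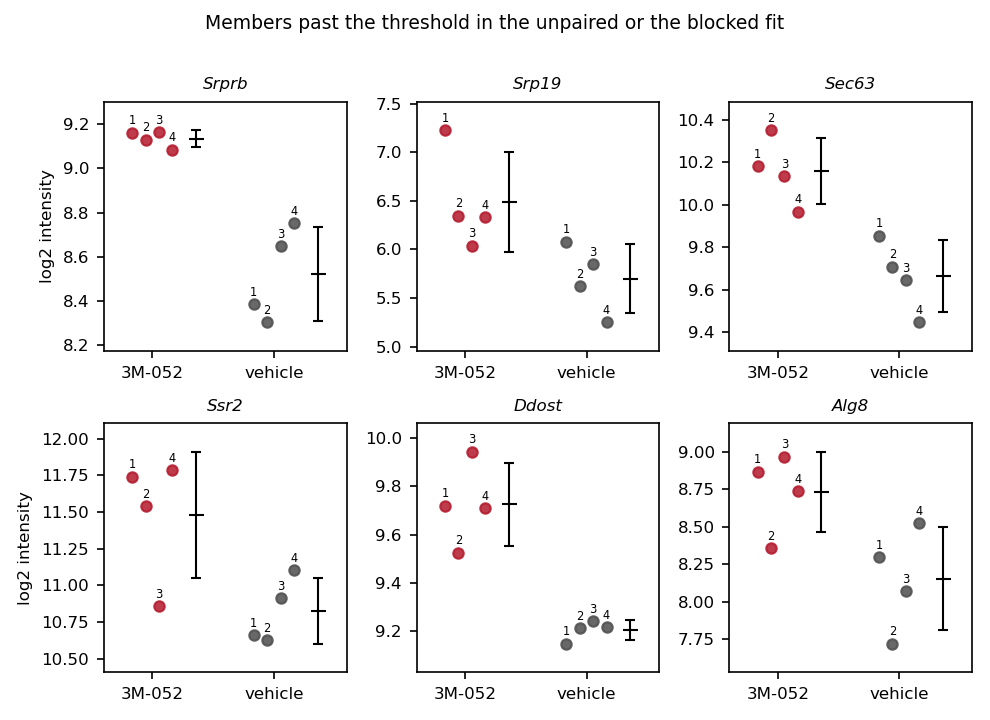
Log2 intensity on each array of the 6 members called in the unpaired or the blocked fit, with the replicate number over each point and the mean ± SD of 4 arrays beside each group (3M-052 left, vehicle right). The groups are separate for Srprb, Sec63 and Ddost and overlap for Srp19, Ssr2 and Alg8.

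The 4 TRAP genes encode the complex that sits on the Sec61 channel and assists the entry of some proteins. All 4 differences were positive, with a median of 0.39, and none was called without the block. Ssr2, the beta subunit, had log2 intensities of 11.74, 11.54, 10.86 and 11.79 on the 3M-052 arrays and 10.66, 10.63, 10.91 and 11.10 on the vehicle arrays. In the 3M-052 group 3 of 4 arrays were above every vehicle array, and replicate 3 was not. The log2 difference was 0.65 (SE 0.207, limma adjusted p = 0.096, and 0.037 with the block). Ssr1, the alpha subunit, separated the groups, at 8.62, 8.37, 8.81 and 8.55 on the 3M-052 arrays and 8.27, 8.35, 8.18 and 7.92 on the vehicle arrays, but its log2 difference of 0.41 was not called (limma adjusted p = 0.20). Ssr3 and Ssr4, the gamma and delta subunits, had log2 differences of 0.17 and 0.36. Ssr4 was among the brightest members, at log2 intensities of 13.08, 12.95, 12.09 and 12.97 on the 3M-052 arrays and 12.46, 12.31, 12.06 and 12.78 on the vehicle arrays, with replicate 3 the lowest in both groups. Its dimmer probe had a log2 difference of 0.48 (limma adjusted p = 0.25, and 0.036 with the block).

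Signal peptidase was represented by 4 genes, of which 3 had positive differences, with a median of 0.34, and none was called. Sec11a and Sec11c encode alternative catalytic subunits. Sec11a had log2 intensities of 11.89, 11.51, 11.22 and 11.68 on the 3M-052 arrays and 11.70, 11.40, 11.53 and 11.74 on the vehicle arrays, and its log2 difference was -0.02 (limma adjusted p = 0.97). Sec11c had log2 intensities of 10.01, 9.98, 8.77 and 9.07 on the 3M-052 arrays and 9.18, 8.95, 8.79 and 8.59 on the vehicle arrays. The upper pair of its 3M-052 arrays was above all vehicle arrays and the lower pair was among them, with a log2 difference of 0.58 (SE 0.280, limma adjusted p = 0.27). Spcs1, a small accessory subunit, had a log2 difference of 0.43 (limma adjusted p = 0.23), and its dimmer probe had one of 0.48 (limma adjusted p = 0.19, and 0.042 with the block).

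The probes of Spcs3, an accessory subunit that signal peptidase needs for its activity, gave unlike differences. The brighter probe, which was used for the counts, had log2 intensities of 10.61, 10.91, 11.08 and 10.74 on the 3M-052 arrays and 10.59, 10.58, 10.56 and 10.63 on the vehicle arrays, with a log2 difference of 0.24 (limma adjusted p = 0.35). The dimmer probe had log2 intensities of 9.74, 9.50, 9.12 and 9.60 on the 3M-052 arrays and 8.07, 7.70, 7.69 and 8.14 on the vehicle arrays. Its groups were far apart, with a log2 difference of 1.59 (SE 0.189, limma adjusted p = 0.00077), the largest difference of any of the 60 probes of members, and it was singled out after its values were seen. Both probes are annotated to the same transcript, and where on it they bind was not analysed here. Of the 60 probes, 2 were called higher, this one and the brighter Srprb probe, and none lower, against 2.81% and 2.29% of all probes. With the block 15 were called higher and none lower, against 6.33% and 7.70%, and these were probes of 10 members, the 6 called by their brightest probe and Tram1, Ssr4, Spcs1 and Spcs3 by a dimmer one. Several probes were available for 17 members, and in 4 of them the probes differed in sign.

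**Figure D4:**
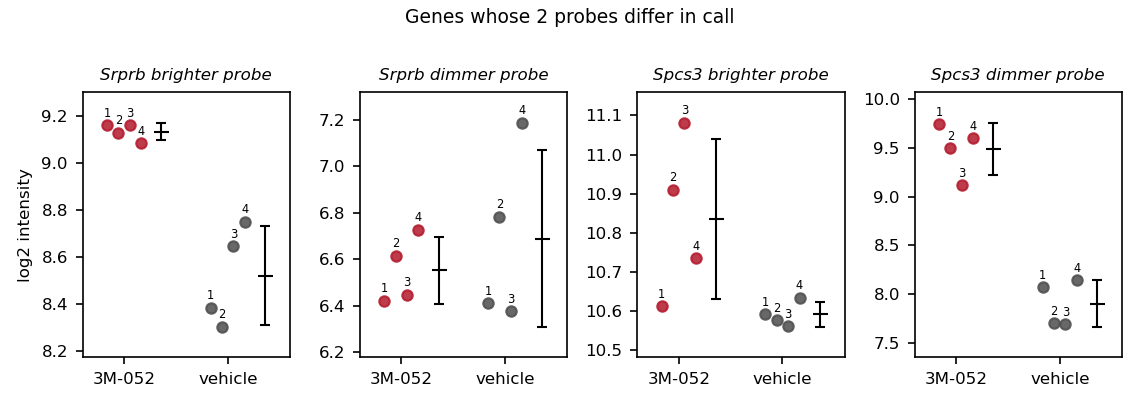
Log2 intensity on each array of both probes of Srprb and of Spcs3 (3M-052 left, vehicle right, with the replicate number over each point and the mean ± SD of 4 arrays beside each group). For Srprb only the brighter probe separates the groups, and for Spcs3 only the dimmer probe does.

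OST was represented by 7 genes, of which 5 had positive differences, with a median of 0.19, and none was called without the block. Ddost, a structural subunit, had log2 intensities of 9.72, 9.52, 9.94 and 9.71 on the 3M-052 arrays and 9.15, 9.21, 9.24 and 9.22 on the vehicle arrays. The groups did not overlap, and the vehicle arrays lay close together. The log2 difference was 0.52 (SE 0.142, limma adjusted p = 0.060, and 0.024 with the block), with normalized intensities of 851 ± 102 in 3M-052-treated mice and 590 ± 16.2 in vehicle-treated mice (SD, n = 4 each). The catalytic subunits of the alternative OST complexes had negative differences. Stt3a, the subunit of the complex that works at the translocon, had log2 intensities of 7.18, 7.07, 7.11 and 7.00 on the 3M-052 arrays and 7.11, 7.09, 7.09 and 7.33 on the vehicle arrays, with a log2 difference of -0.06 (limma adjusted p = 0.89). Stt3b, the subunit of the complex that can also act after translation, had log2 intensities of 12.31, 12.58, 12.67 and 12.43 on the 3M-052 arrays and 12.62, 12.77, 12.80 and 12.69 on the vehicle arrays. Only 3M-052 replicate 3 lay within the vehicle range. The log2 difference of -0.22 did not pass the test (SE 0.119, limma adjusted p = 0.33), and it was 0.09 when arrays were centered on their medians and 0.06 over the mean of its 3 probes.

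Ostc and Krtcap2, small subunits that belong to the STT3A complex, had log2 differences of 0.37 and 0.28, which did not pass the test (limma adjusted p = 0.23 and 0.49). For Krtcap2, 3M-052 replicate 3 was at 11.89 and the other 3M-052 arrays were between 12.76 and 12.87, while the vehicle arrays were between 12.11 and 12.43. Rpn2, a structural subunit, was the brightest measured member, with log2 intensities between 13.00 and 13.56 in the 3M-052 group and between 12.96 and 13.13 in the vehicle group and a log2 difference of 0.19. Dad1, a small subunit whose loss leads to cell death in hamster cells, had a log2 difference of 0.04 (limma adjusted p = 0.95).

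Of the 7 genes for the lipid-linked precursor and for glucose trimming, 6 had positive differences, with a median of 0.09, and none was called without the block. Alg8 adds the second glucose to the precursor. It had log2 intensities of 8.87, 8.36, 8.97 and 8.74 on the 3M-052 arrays and 8.30, 7.72, 8.07 and 8.52 on the vehicle arrays. Only 3M-052 replicate 2 lay within the vehicle range, and vehicle replicate 2 was the lowest of its group as well. The log2 difference was 0.58 (SE 0.211, limma adjusted p = 0.15, and 0.033 with the block), and the 4 probes of Alg8 gave differences between 0.58 and 0.86. The remaining genes differed less. Dpagt1, which makes the first sugar link to dolichol, had a log2 difference of 0.18, and Alg2 and Alg5, a mannosyltransferase and the enzyme that makes dolichol-bound glucose, had log2 differences of 0.06 and 0.12. Mogs and Ganab, the glucosidases that trim the transferred glycan, had log2 differences of 0.09 and 0.04. Dpm1, the catalytic subunit that makes dolichol-bound mannose, was dim and had a log2 difference of -0.16 (limma adjusted p = 0.73), with vehicle replicate 4 at 6.38 and all other arrays between 5.54 and 5.84.

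Related subunits were set against each other within each array, which cancels what both share. Sec11c minus Sec11a was -2.12 ± 0.502 in 3M-052-treated mice and -2.72 ± 0.311 in vehicle-treated mice (SD, n = 4 each, log2), a difference of 0.60 with an exact permutation p of 0.11. Tram2 minus Tram1 differed by 0.45 between the groups, and Srprb minus Srpr by 0.43. For the remaining pairs, Sec61a2 minus Sec61a1 differed by -0.22 and Stt3b minus Stt3a by -0.16. None of the 5 pair differences passed the two-sided exact permutation test, which leaves the replicate numbers out, with p between 0.11 and 0.31 and an adjusted p of 0.31 for each. Between arrays of the same number, 3M-052 minus vehicle, Sec11c minus Sec11a differed by 0.65, 0.92, 0.29 and 0.53, and Srprb minus Srpr by 0.75, 0.61, 0.26 and 0.080. Both were positive in 4 of 4 pairs of arrays, Tram2 minus Tram1 in 3, and the remaining subunit pairs in 1 each. Each gene entered by its brightest probe. The dimmer Srprb probe had a log2 difference of -0.14, below the 0.19 of Srpr. The positive values of Srprb minus Srpr are therefore those of the brighter probe only. A paired exact permutation test, added after the data were seen, gave two-sided p = 0.125 for Sec11c minus Sec11a and for Srprb minus Srpr, which is the smallest that 4 pairs can give, so it cannot reach 0.05 here, and p between 0.25 and 0.50 for the others.

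**Figure D5:**
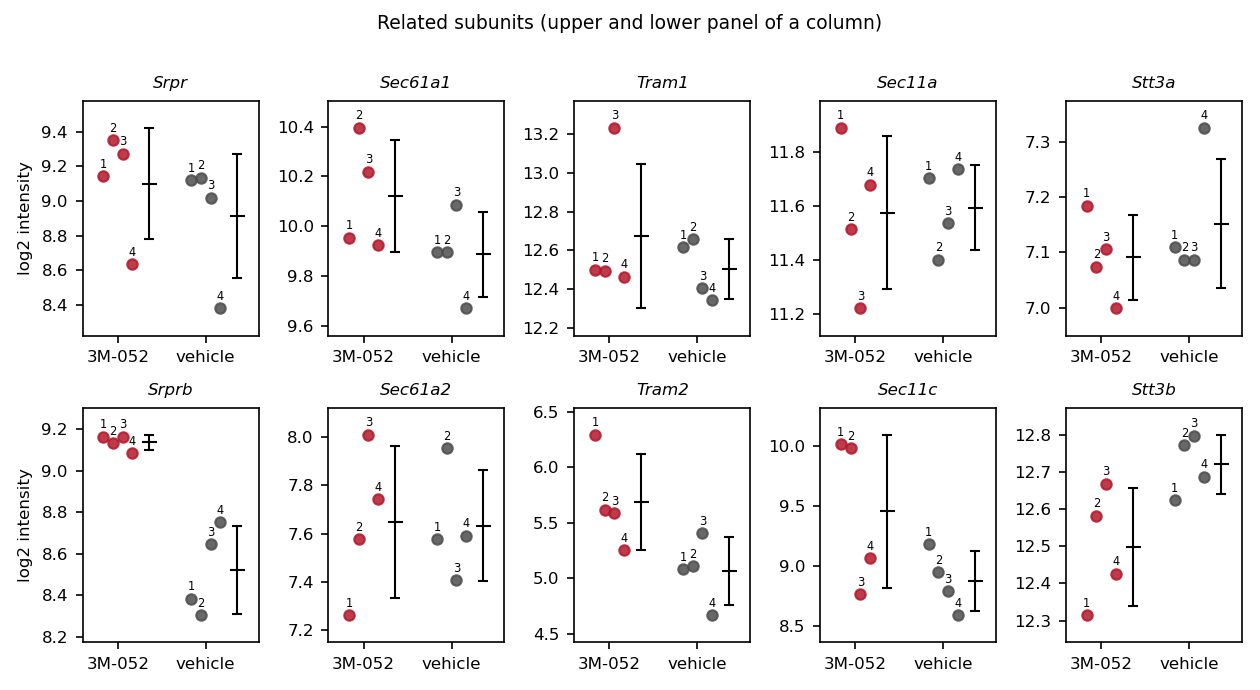
Log2 intensity on each array of 5 pairs of related subunits, a pair to a column (3M-052 left, vehicle right in each panel, with the replicate number over each point and the mean ± SD of 4 arrays). Each gene is shown by its brightest probe, and the dimmer probe of Srprb does not separate the groups. The groups overlap in every panel other than that of Srprb. No within-array difference passed the exact permutation test over the 8 arrays, while a test over 4 pairs of arrays cannot go below 0.125.

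Members did not order the 3M-052 arrays alike. Replicate 3 was the lowest 3M-052 array for 14 members (38.9%, against 27.7% of all probes) and the highest for 14 others (38.9%, against 33.7% of all probes). The members it was lowest for include Sec61b, Sec61g, Ssr2, Ssr4, Spcs1, Sec11a, Sec11c, Dad1, Ostc and Krtcap2, and those it was highest for include Srprb, Tram1, Ssr1, Spcs3, Rpn2, Ddost, Stt3b and Alg8. Replicate 3 also had the lowest weight of the 8 arrays, 0.370, when limma estimated array weights. Without replicate 3 of the 3M-052 group, Ssr2, Spcs1 and Krtcap2 were called higher, against 2.56% of all probes, and Srprb was not (limma adjusted p = 0.062). With array weights, Srprb, Ssr2, Spcs1 and Ddost were called higher, against 4.31% of all probes. With centering on array medians, Srprb, Sec63 and Ddost were called higher, against 2.93% of all probes, and over the mean of a gene's probes Spcs3, Ddost and Alg8 were, against 3.41% of 13591 features.

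Most other genes of the same pathway had small differences too. Of 43 listed, 31 were measured, of which 24 had positive differences, with a median of 0.11. Hm13, the signal peptide peptidase that clears cut signal peptides, rose by 0.61 (SE 0.147, limma adjusted p = 0.036), and Gmppb, which makes the GDP-mannose used for the precursor, rose by 0.77 (SE 0.185, limma adjusted p = 0.036). No other was called in either direction without the block. Neither was called without 3M-052 replicate 1 or 4 or without vehicle replicate 1, 2 or 3, whereas of the pair only Gmppb was called without 3M-052 replicate 2 and only Hm13 without 3M-052 replicate 3 or vehicle replicate 4. With the block, Nus1, a subunit of the enzyme that makes the dolichol chain, was also called higher at 0.74 (limma adjusted p = 0.071 without and 0.012 with it), and Dnajc1, a membrane-bound BiP partner, was called lower at -0.79 (limma adjusted p = 0.096 without and 0.038 with it). Srp54a, an SRP subunit that binds signal sequences, had a log2 difference of 0.53 (limma adjusted p = 0.18). Of 16 genes for the insertion of membrane proteins through the EMC and GET routes, none was called, and their median was -0.10. Of 20 measured genes for protein import into mitochondria, none was called without the block and 2 with it, 19 had positive differences, and their median was 0.20.

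Markers of antibody-secreting cells were higher in the same nodes. Of 16 listed plasma cell markers, 12 were measured and 9 were called higher, with a median of 0.81, among them Derl3 (2.25), Fkbp11 (2.18), Tnfrsf17 (2.10) and Mzb1 (1.61). With the block 11 were called higher, Slamf7 (limma adjusted p = 0.066 without and 0.028 with it) and Eaf2 (0.099 and 0.040) being added. Sdc1 was called in neither fit (0.21 and 0.13). Xbp1, the gene of the transcription factor named above, was among the 9 markers called, at 0.75 (limma adjusted p = 0.0071, and 0.0030 with the block). Its part in the differences of the members was not tested. Only 2 markers were called higher with the methods' t-test after adjustment, and 1 with the mean level of fat markers added to the fit. The mean log2 level of the 12 plasma cell markers ran from 9.38 to 9.85 in the 3M-052 group and from 8.38 to 8.78 in the vehicle group. None of the 9 measured B cell markers was called, and their mean level was 9.82 to 10.1 in the 3M-052 group and 9.74 to 10.0 in the vehicle group. Of 8 T cell markers, 3 were called lower (Thy1, Cd3e and Cd3g) and 5 with the block, which added Cd3d (limma adjusted p = 0.068 without and 0.0056 with it) and Bcl11b (0.067 and 0.0020). None was called lower with arrays centered on their medians or with the mean level of the fat markers added to the fit, and the mean level of the 8 was 10.3 to 10.7 in the 3M-052 group and 11.1 to 11.5 in the vehicle group. Of 6 myeloid markers, Fcgr1 was called higher at 1.96. All 3 measured erythroid markers (Hba-a1, Hbb-bt and Alas2) were called lower. No erythroid marker was called with the methods' t-test after adjustment or with the mean level of the fat markers added to the fit. In both of these settings 1 myeloid marker was still called higher. Levels of fat markers were uneven, with a mean of 5.75 to 8.20 over 7 genes in the 3M-052 group and 6.79 to 10.4 in the vehicle group, and the mean of 3 melanocyte markers lay between 4.95 and 5.96 in the 3M-052 group and between 5.33 and 6.23 in the vehicle group, other than vehicle replicate 3 at 10.0. When the mean level of the fat markers was added to the fit, Srprb had a log2 difference of 0.50 with a limma adjusted p of 0.40. The part of any of these cells in the differences of the members was not tested.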

How the data were processed

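RNA of 8 tumor-draining lymph nodes (3M-052, n = 4, and vehicle, n = 4) had been amplified, labeled with biotin and measured on Illumina mouse bead arrays. The authors deposited, for 45281 probes, a detection p-value in steps of 1 in 936 and the intensity from GenomeStudio (version not given in the sources used here). A second deposited table holds intensity values of 21765 probes, which the authors had normalized by an unnamed method, and its log2 served as an alternative.

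The neqc function of limma 3.58.1 (R 4.3.3, offset 16) used the detection p-values for background correction, followed by quantile normalization and log2. A probe was kept where 4 or more of the 8 arrays had a detection p under 0.05, which held for 19462. The comparison used lmFit and then eBayes (trend on), with Benjamini-Hochberg adjustment over all kept probes. Gene names come from the platform annotation, updated by gene identifier to RefSeq of GRCm38.p6. Of the probes in the second table, 18216 had 1 name, 8 had several and 3541 had none, and probes outside it are unnamed here. Of the kept probes, 3048 are unnamed. Deviations from the group means correlated at 0.19, 0.43, 0.25 and 0.57 between arrays of the same replicate number (the highest value between different numbers was 0.13), so the numbers were taken to pair the arrays. What a number marks is not in the labels. On simulated data in which 200 of 19462 probes were changed, 42% of those changed by 1 on the log2 scale were recovered. Of those changed by 0.5, 0% were recovered. Fewer probes were changed than were called in the real data (546 higher and 446 lower), so the adjusted threshold was harder to reach in the simulation. The number of arrays limits the precision. The limma p-values set a group difference against the spread between these mice, moderated over all probes. With the block, they set it against the spread left after the replicate numbers.

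The members and all lists were chosen with earlier results of these data known. Values on every array were given for members past the threshold, for pairs of related subunits, and, chosen after their values were seen, for Srp19, Sec63, Ssr1, Ssr2, Ssr4, Ddost, Alg8 and both probes of Spcs3. Alternatives covered background correction, normalization, the probe filter, the table, the variance trend, array weights, the block, the methods' t-test, the level of fat markers as a covariate, the mean of a gene's probes, and leaving out each array.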

Additional observations from a re-analysis of the deposited data

Results flagged for a closer look

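Outlying arrays were looked for in 88 groups of 4 arrays. These were each measured member and some, but not all, of the marker and pathway lists, in each treatment group. The gap of the highest or lowest array to its neighbor was set against the range of the group. In 9 groups this share was above Dixon's critical value, which chance exceeds in about 1 in 20 groups. Of these, 4 involved 3M-052 replicate 3. It was high for Tram1, at 13.23 against 12.46 to 12.50 on the other 3M-052 arrays (share 0.953). It was low for Ssr4, at 12.09 against 12.95 to 13.08 (share 0.870), for Ostc, at 11.49 against 11.98 to 12.05 (share 0.884), and for Krtcap2, at 11.89 against 12.76 to 12.87 (share 0.882). Vehicle replicate 4 was involved in 3 more. It was low for Srpr, at 8.38 against 9.02 to 9.13 (share 0.846), and high for Stt3a, at 7.33 against 7.09 to 7.11 (share 0.904), and for Dpm1, at 6.38 against 5.67 to 5.74 (share 0.903). The 2 remaining groups involved vehicle replicate 1, which was high for Srp9, at 10.32 against 10.04 to 10.09 (share 0.834), and for the mean of the T cell markers, at 11.5 against 11.1 to 11.2 (share 0.846). All levels are log2 intensities.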

How the results depend on the processing

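Members called higher numbered 1 in the unpaired fit (Srprb). The number stayed at 1 without background correction, with normexp without the detection p-values and with the strict detection filter, was 3 with median centering and with the mean of probes, 4 with array weights and 6 with the replicate block, and was 0 without the probe filter, with the authors' values, without the variance trend, with the methods' t-test and with the fat covariate. Leaving out an array gave 0 to 3 members: 0 for 3M-052 replicate 1 or 4 and for vehicle replicate 1, 2 or 3, Ddost alone for 3M-052 replicate 2, 3 members for 3M-052 replicate 3, and Srprb for vehicle replicate 4. No member was called lower in any of these settings. The members' median was 0.45 with median centering.

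Over all probes, calls were 546 higher and 446 lower, against 838 and 869 with array weights, 1232 and 1499 with the replicate block, 118 and 98 with the methods' t-test, 158 and 27 with the fat covariate, 255 lower without the filter, and 283 to 670 higher and 118 to 683 lower when an array was left out. Other pathway genes called higher numbered 2, but 0 without the filter, with the t-test or with the fat covariate, 1 with the authors' values or without the trend, and 0 to 2 when an array was left out. Those called lower numbered 1 with the block and 0 to 1 when an array was left out. Plasma cell markers called higher numbered 9, but 11 with the block or array weights, 7 without the filter, with the strict filter or without the trend, 2 with the t-test, 1 with the fat covariate, and 4 to 8 when an array was left out, the fewest without vehicle replicate 2 (4) and without 3M-052 replicate 1 or vehicle replicate 1 (5 each). T cell markers called lower numbered 3, but 5 with the block, 4 with array weights or the authors' values, 2 without the trend, 1 with the t-test, 0 with median centering or the fat covariate, and 2 to 4 when an array was left out. Erythroid markers called lower numbered 3, but 2 with the strict filter and 0 with the t-test or the fat covariate. Fcgr1 was the 1 myeloid marker called higher, with none for the strict filter, and 3 fat markers were called lower with array weights.

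Members of small difference changed sign, none of them past the threshold. With median centering Srp9 was 0.087, Sec11a 0.25 and Stt3b 0.089, and with the mean of probes Srp9 was 0.020, Stt3b 0.062 and Sec61a1 -0.0094. With array weights Sec61a2 was -0.039, Sec11a 0.035 and Mogs -0.011, and Sec61a2 was -0.11 with the authors' values and -0.045 with the fat covariate. When an array was left out, Srp14 ranged from -0.11 to 0.33, Srp72 from -0.012 to 0.35, Sec61a2 from -0.10 to 0.14, Tram1 from -0.018 to 0.24, Sec11a from -0.12 to 0.10, Dad1 from -0.073 to 0.24, Alg2 from -0.060 to 0.20, Dpm1 from -0.23 to 0.0078, Mogs from -0.037 to 0.21 and Ganab from -0.033 to 0.093. The causes of these changes were not tested. Limits are the 4 arrays in each group, the whole-node RNA, and differences of members that are mostly under 0.5. The simulation did not recover changes of 0.5, but it changed only 200 probes and does not show what the real fit can call. In the real data the plasma cell marker Tnfrsf13b was called at 0.49 (limma adjusted p = 0.042).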
